A study of Arabidopsis thaliana with 3 samples.

Results

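The summits described here are peak positions of FLAG-tagged JMJ28, measured by chromatin immunoprecipitation and sequencing (ChIP-seq), that fall where 2 protein-coding genes share the same bases. They were taken from the authors' list of peak summits, each a single base of chromosomes 1 to 5, by asking whether that base lies inside the extents of 2 or more protein-coding genes in a RefSeq gene table. Of 18368 nuclear summits, 357 (1.94%, exact 95% interval 1.75 to 2.15) met this rule, 15846 lay inside exactly 1 protein-coding gene and 2165 lay outside them. The whole list held 18410 summits.

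The list came from Arabidopsis thaliana Col-0 seedlings carrying JMJ28pro::JMJ28:3xFLAG, that is, JMJ28 with a FLAG epitope tag driven by its own promoter. Seedlings were 14 days old and grown in long days at 22 °C. There were 2 ChIP libraries, described as biological replicates, and 1 input library, all of the same transgenic genotype, and the labels state that DNA was pooled to reach enough material. Chromatin recovered without the tag was not analysed here, and neither the line's independence nor the state of its endogenous JMJ28 gene is given in the sources used here. Values per library were not analysed here, so no test between samples was possible and all intervals cover counting error only.

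JMJ28 belongs to the JmjC class of histone demethylases, among the KDM3-type enzymes that act on methylated histone H3 at lysine 9. Plant genomes are compact, and neighbouring genes can share bases in several ways. Their tails can run into each other, their starts can face each other with overlapping leaders, a transcript can run on into the next gene of the same strand, or a short gene can sit wholly within a longer one. A factor found at such a place cannot be assigned to 1 gene from its position alone. Strand was not used here, since the gene table does not give it, so tail-to-tail, head-to-head and same-strand overlaps cannot be told apart. Overlaps were instead sorted into partial ones, where each gene also has bases of its own, and nested ones, where a gene lies wholly inside its partner. Gene extents span all annotated transcripts of a gene, so a single long isoform is enough to make an overlap.

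Shared bases were rare, and summits were more frequent in them than their length alone would give. Bases inside 2 or more genes made up 0.815% of the chromosomes and 1.51% of all protein-coding bases, against 1.94% of nuclear summits and 2.20% of the summits inside protein-coding genes. There were 36.8 summits per 100 kb of bases inside 2 genes (interval 33.1 to 40.8), against 24.95 per 100 kb of bases inside 1 gene (24.6 to 25.3), a ratio of 1.47 (1.32 to 1.64). Outside protein-coding genes there were 3.96 per 100 kb. The 1352 bases inside 3 genes held 0 summits, and so few bases can show no difference in density.

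The shared bases lay mostly near gene ends, where summits are also dense in bases inside 1 gene. Bases inside 1 gene include the unshared bases of overlapping genes. Overlaps are made of gene ends, and 84.7% of the bases inside 2 genes lay under 500 bp from an end of a gene covering them, against 38.6% of the bases inside 1 gene. Summits inside 1 gene also sat mostly there. From 100 up to 200 bp from the nearest end there were 49.7 summits per 100 kb inside 2 genes (40.2 to 60.8) and 60.8 inside 1 gene (58.7 to 63.0). From 200 up to 300 bp the densities were 54.1 (41.4 to 69.3) inside 2 genes and 59.8 (57.7 to 62) inside 1 gene. In the first 100 bp the values were 34.6 per 100 kb inside 2 genes and 36.9 inside 1 gene. In each of these bins the interval of the ratio of the 2 densities includes 1 (0.781 to 1.11, 0.658 to 1.003 and 0.691 to 1.16, by distance).

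With each base given the density of 1-gene bases at the same distance from an end, 399.9 summits would lie in the shared bases. The 357 found were 0.893 times that number (interval 0.803 to 0.990). When the 2 distances of a shared base, to the ends of its 2 genes, were given equal weight instead of the nearer alone, the ratio was 1.0. The higher density of shared bases was no longer seen at matched distance from gene ends. The bin from 300 up to 400 bp stood lowest against its counterpart, with 26.0 per 100 kb inside 2 genes (19 summits, 15.7 to 40.6) against 46.4 inside 1 gene (44.5 to 48.4). From 500 up to 1000 bp the order was the other way, 22.8 inside 2 genes against 15 inside 1 gene, with a ratio of 1.52 whose interval (0.989 to 2.23) includes 1.

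**Figure D1:**
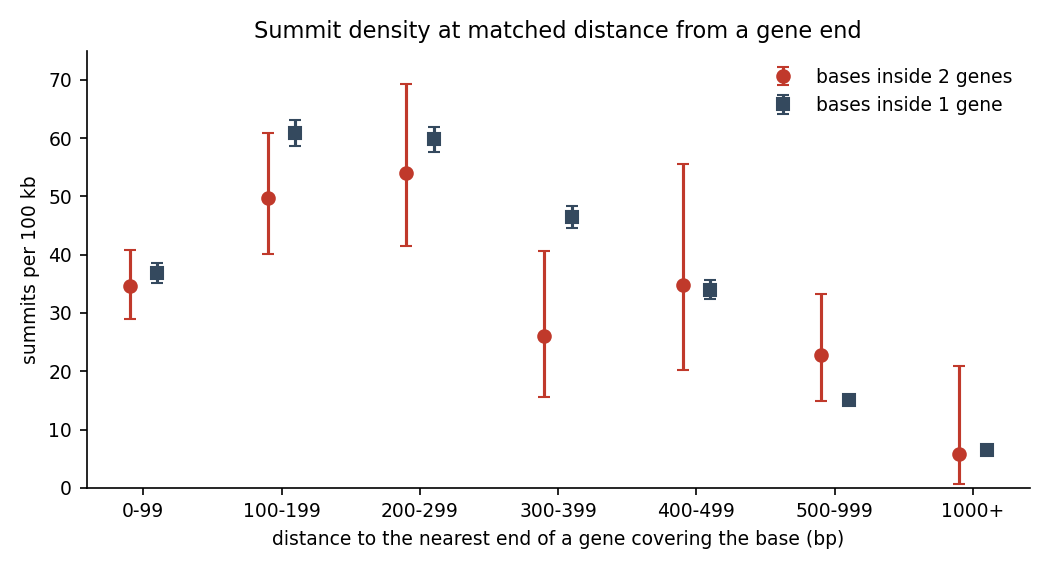
Summits per 100 kb (vertical axis) by distance in bp to the nearest end of a gene that covers the base, for bases inside 2 genes (circles) and inside 1 gene (squares), with exact Poisson 95% intervals. The circles lie below the squares in the 4 bins up to 400 bp, at 34.6, 49.7, 54.1 and 26.0 against 36.9, 60.8, 59.8 and 46.4. The interval of the ratio includes 1 in the bins up to 300 bp and excludes it from 300 up to 400 bp (0.336 to 0.876).

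Most overlaps were short and carried no summit. The 3566 overlap regions, each an unbroken run of bases inside 2 or more genes, had a median length of 100 bp (interquartile range 37 to 324 bp). Of them 349 (9.79%, 8.83 to 10.8) held a summit, 8 of which held 2. In 2590 regions (72.6%) the shared bases had no summit but the rest of the genes involved had at least 1, and in 627 (17.6%) none of the genes had any. Regions with a summit had a median length of 584 bp (interval 486 to 642), against 84 bp (78 to 90) for those without.

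The share with a summit was higher in each longer class. It was 0.609% of 1150 regions under 50 bp, 2.89% of 1211 regions from 50 up to 200 bp, 18.5% of 639 regions from 200 up to 500 bp, 26.0% of 366 regions from 500 up to 1000 bp and 47.0% of 200 regions of 1000 bp and more. Per base the order was different. Regions from 200 up to 500 bp had the highest density of these 5 classes, 55.7 per 100 kb (118 summits, 46.1 to 66.7). Shorter ones had 25.7 (under 50 bp) and 27.5 (50 up to 200 bp), and longer ones 37.1 (500 up to 1000 bp) and 29.2 (1000 bp and more). At matched distance from gene ends the class from 200 up to 500 bp had 1.2 times the density of 1-gene bases (0.996 to 1.44), an interval that includes 1. The class from 500 up to 1000 bp had 0.730 times (0.591 to 0.892). The ratio was 0.696 (0.280 to 1.43) under 50 bp and 0.746 (0.519 to 1.04) from 50 up to 200 bp. For 1000 bp and more it was 0.889 (0.725 to 1.08), and these intervals also include 1.

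Partial overlaps from 50 up to 200 bp held fewer summits per base than the gene sequence beside them, and those from 200 up to 500 bp held more. Over all lengths there were 36.7 summits per 100 kb in partial overlaps and 45.1 beside them, a ratio of 0.812 (0.703 to 0.935). From 50 up to 200 bp the density was 27.4 per 100 kb in the overlap (33 summits, 18.8 to 38.4), against 45.1 (41.3 to 49.2) in the bases inside 1 gene up to 500 bp to either side, a ratio of 0.607 (0.413 to 0.863). Under 50 bp the values were 25.8 in the overlap, from only 7 summits, and 52.8 beside it, and the ratio of 0.489 had an interval of 0.196 to 1.01. In the class from 200 up to 500 bp the order was the other way round, with 52.4 per 100 kb in the overlap (42.1 to 64.5) and 34.9 beside it (29.8 to 40.6), a ratio of 1.5 (1.15 to 1.95). From 500 up to 1000 bp the ratio was 1.29 (0.886 to 1.89) and for longer overlaps 0.760 (0.444 to 1.33), so neither order could be told from counting error. The bases beside the overlaps were not matched to them for distance from gene ends. At matched distance, the intervals for all overlaps from 50 up to 200 bp (0.519 to 1.04) and from 200 up to 500 bp (0.996 to 1.44) include 1.

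**Figure D2:**
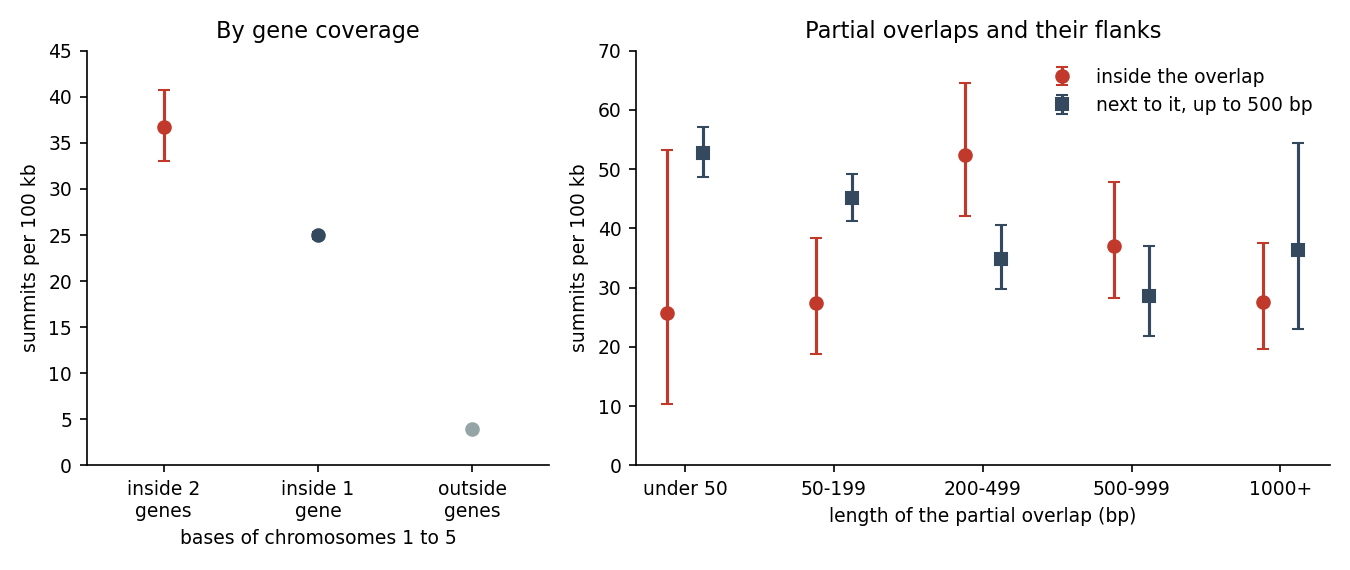
Left, summits per 100 kb of bases inside 2 protein-coding genes, inside 1 and outside them, with exact Poisson 95% intervals: 36.8, 24.95 and 3.96. Right, the same density in partial overlaps (circles) and in the bases inside 1 gene up to 500 bp beside them (squares) by overlap length in bp. The circle lies below the square in overlaps under 200 bp and above it from 200 up to 500 bp.

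Around gene ends inside another gene, the summit profile had peaks on each side and a dip at the end, from partly shared counts. There were 7182 such ends, 9753 ends outside other genes but with one within 200 bp, and 37953 ends farther apart. For ends inside another gene, the density was highest from 200 up to 300 bp inside the gene whose end it was (63.7 per 100 kb, 57.9 to 69.9). It was 32.1 (28.1 to 36.5) in the last 100 bp before the end and stood at 34.1 in the first 100 bp beyond. It was again high, at 55.8 (50.5 to 61.6), at a distance of 200 to 300 bp beyond the end. Ends next to another gene had a like double peak with higher tops, 79.3 in the bin from 100 up to 200 bp inside and 77.7 at 200 to 300 bp outside. Ends apart from other genes had 56.8 and 56.5 per 100 kb in the bins that start 100 and 200 bp inside, and between 11.7 and 15.6 in the 500 bp outside. In the last 100 bp before the end they had 32.1 (30.3 to 33.9), as did ends inside another gene. Ends next to another gene had 57.6 there (53.0 to 62.6). A summit near several ends was counted for each of them. The gene ends of a partial overlap face each other, so a summit inside an end can also count outside the facing end. The same holds for ends next to another gene. The peaks inside and outside an end are thus not separate observations, and the intervals do not allow for this. Partial overlaps had a median length of 79 bp, so in most of them the bases from 200 bp inside an end lay beyond the overlap.

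**Figure D3:**
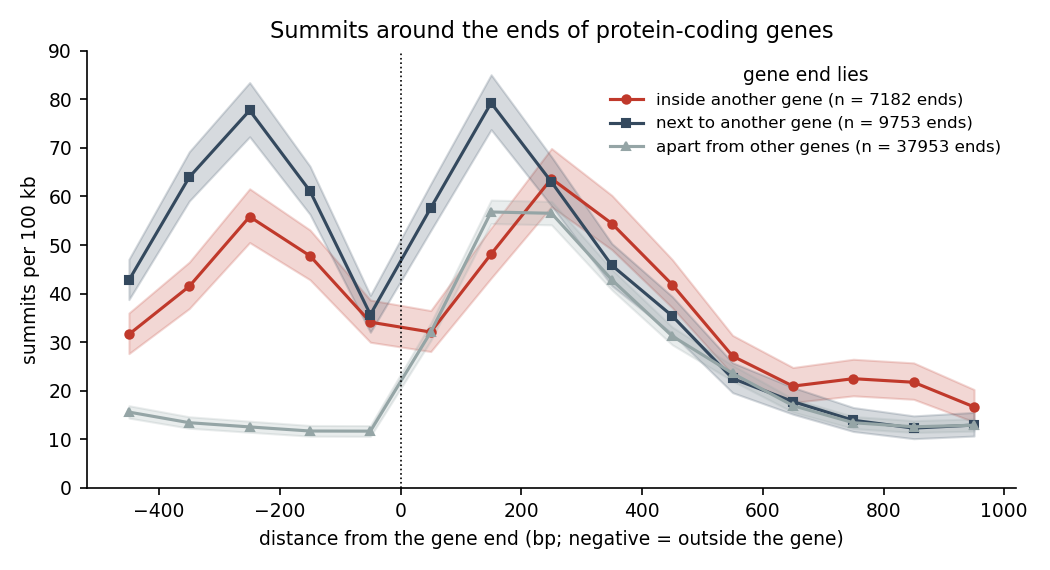
Summits per 100 kb in bins of 100 bp from 500 bp outside (negative) to 1000 bp inside a gene end, for ends inside another protein-coding gene, within 200 bp of another gene, or farther apart. Shading gives exact Poisson 95% intervals, with a summit counted for each end that it is near. The same summit can enter the bins inside an end and those outside the facing end, which the intervals do not allow for. Ends inside another gene show 63.7 from 200 up to 300 bp inside and 55.8 at that distance outside, with 32.1 and 34.1 in the bins at the end.

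Over all lengths together, partial and nested overlaps had the same summit density within counting error. The 3142 partial overlaps held 228 members at 36.7 per 100 kb (32.1 to 41.8), and the 413 nested ones 121 members at 35.9 (29.8 to 42.9). Nested overlaps held a summit more often per region, 27.8% (23.6 to 32.4) against 7.19% of partial ones (6.31 to 8.15), and their median length was 585 bp against 79 bp for partial ones. The 2 densities are thus not matched for length. At matched distance from gene ends, partial overlaps had 0.866 times the number at 1-gene densities (0.757 to 0.986). Nested ones had 0.919 times (0.763 to 1.10), and the 2 intervals overlap. The 11 regions reached by 3 genes held the other 8 members. In each of them the summit itself lay inside 2 of the 3 genes.

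The members sat a median of 140 bp (interquartile range 49 to 249 bp) from the nearest end of a covering gene and 320 bp (204 to 554 bp) from the nearest end of the other. For summits inside 1 gene the median distance to its nearer end was 300 bp (169 to 511 bp). The edges of an overlap are gene ends, and the members' distance to the nearest edge was likewise 140 bp (49 to 249 bp). The length of the overlap therefore limits how far a member can lie from an end. For that reason the medians of 140 and 300 bp cannot show whether members lie closer to gene ends than other summits do. An end of both genes lay under 500 bp away for 258 members (72.3%). Among the 315 members in overlaps of at least 200 bp, 164 (52.1%, 46.4 to 57.7) lay in the central 50% of the overlap, a share whose interval includes 50%. In partial overlaps 109 of 228 members (47.8%, 41.2 to 54.5) were nearer to an end of the shorter gene than of the longer.

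Where the edge of the overlap falls decides membership, and many summits were close to it. Within 50 bp inside an edge lay 91 members, and within 50 bp outside lay 102 summits that are not members. SGB1, a suppressor of G protein beta, and GC5, a golgin candidate, share 66 bp, and their summit (chromosome 1, position 30027569, score 119) is an edge base of that stretch. The summit shared by the RAB GTPase gene RABG3B and AT1G22750 (chromosome 1, position 8050770, score 5.34) is likewise at the edge of an overlap of 15 bp, the shortest that held a summit. Just outside, a summit on chromosome 4 at position 16618574 (score 34.4) lay 1 bp from the single shared base of AT4G34881 and XDH1, the xanthine dehydrogenase gene. Another on chromosome 4 at position 15186006 (score 32.0) lay 1 bp from the overlap of AT4G31290 and AT4G31280.

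Genes that overlap another gene had a summit more often than genes that do not. Of 27444 nuclear protein-coding genes, 6831 (24.9%) shared at least 1 base with another. A summit lay inside 4150 of these (60.8%, 59.6 to 61.9), against 8953 of the 20613 others (43.4%, 42.8 to 44.1) and 47.7% of all protein-coding genes. The difference was present in each of 4 classes of gene length. Among genes under 1000 bp, 29.7% of the overlapping genes had a summit and 12.3% of the others. The shares were 56.1% of overlapping genes and 35.8% of the others from 1000 up to 2000 bp, 68.8% and 54.5% in the next class up, and 71.7% and 62.9% in the longest genes. Counting only summits outside the shared bases, 53.9% of the overlapping genes (52.8 to 55.1) still had one, and the differences by length were smaller. They were then 15.7% (13.4 to 18.2) of overlapping genes under 1000 bp against 12.3% (11.2 to 13.4) of the others, and 66.3% (64.1 to 68.4) of the longest overlapping genes against 62.9% (61.5 to 64.2), with intervals that overlap slightly in both classes. In the 2 classes between, 49.7% of overlapping genes stood against 35.8% of the others and 63.6% against 54.5%. Overlapping genes lie by definition next to another gene, and the part of gene spacing in this difference was not tested.

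Scores of members were slightly higher than those of other summits in genes. The score is the authors' −log10 of a p-value or q-value for a summit, a strength of evidence and not a level of binding. Members had a median score of 11.2 (interval 9.67 to 12.6, interquartile range 6.07 to 23.7), against 9.07 (8.77 to 9.07) for summits inside 1 gene, a difference of 2.17 (0.599 to 3.48 over the interval of the members' median). With only summits at or above the median score of the list the difference was 0.778. Near gene ends the gap was smaller. Members under 500 bp from an end had a median of 11.2 (9.97 to 12.6), and summits inside 1 gene at that distance 9.97 (9.67 to 9.97), so the 2 intervals meet. Scores above 100 were found at 11 members (3.08%, 1.55 to 5.45) and at 243 summits inside 1 gene (1.53%, 1.35 to 1.74). The lowest member scored 1.66 and the highest 244. The highest summit inside 1 gene scored 5357, but that is the top of 15846 summits against 357 members. Members in partial overlaps had a median of 11.7 (10.6 to 13.9) and those in nested overlaps 9.37 (7.36 to 11.2). The interval for nested overlaps includes the 9.07 of summits inside 1 gene.

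The 10 highest scores of members came from 9 partial overlaps and 1 nested gene. MLO2, which encodes a membrane protein required for powdery mildew susceptibility, shares 352 bp with AT1G11303, and the summit there had the highest score (244, chromosome 1, position 3800620), 120 bp inside MLO2 and 231 bp inside its partner. The only other summit of these 2 genes scored 9.07. AT2G25640 and AT2G25650 share only 37 bp, yet their only summit lay in it (score 214, chromosome 2, position 10914518). CFM3B, of the CRM family of RNA-binding proteins, shares 940 bp with AT4G14500, and its summit scored 203 (chromosome 4, position 8337435). NAC027, a gene of the NAC transcription factor family, shares 514 of its 593 bp with AT1G64100 (score 190, chromosome 1, position 23795072). Here the summit was 22 bp inside NAC027 and 491 bp inside the longer gene.

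CAF2, the relative of a maize factor for splicing of chloroplast introns, holds all 885 bp of AT1G23410, with a summit of score 143 (chromosome 1, position 8315012). CDKC2, a cyclin-dependent kinase gene, shares 971 bp with AT5G64970 (142, chromosome 5, position 25958198). SGB1 and GC5 came next with 119. MIPS2, an enzyme gene of inositol synthesis, shares 57 bp with AT2G22241, a gene of only 156 bp (118, chromosome 2, position 9454249). POP4, similar to a yeast gene of that name, shares 168 bp with AT2G43200 (111, chromosome 2, position 17958197), and RKD2, an RWP-RK domain gene, shares 414 bp with AT1G74470 (109.7, chromosome 1, position 27993330). In 4 of these 10 pairs the 2 genes held no other summit. Where there was another, the highest scored 23.7, inside the CAF2 pair.

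**Figure D4:**
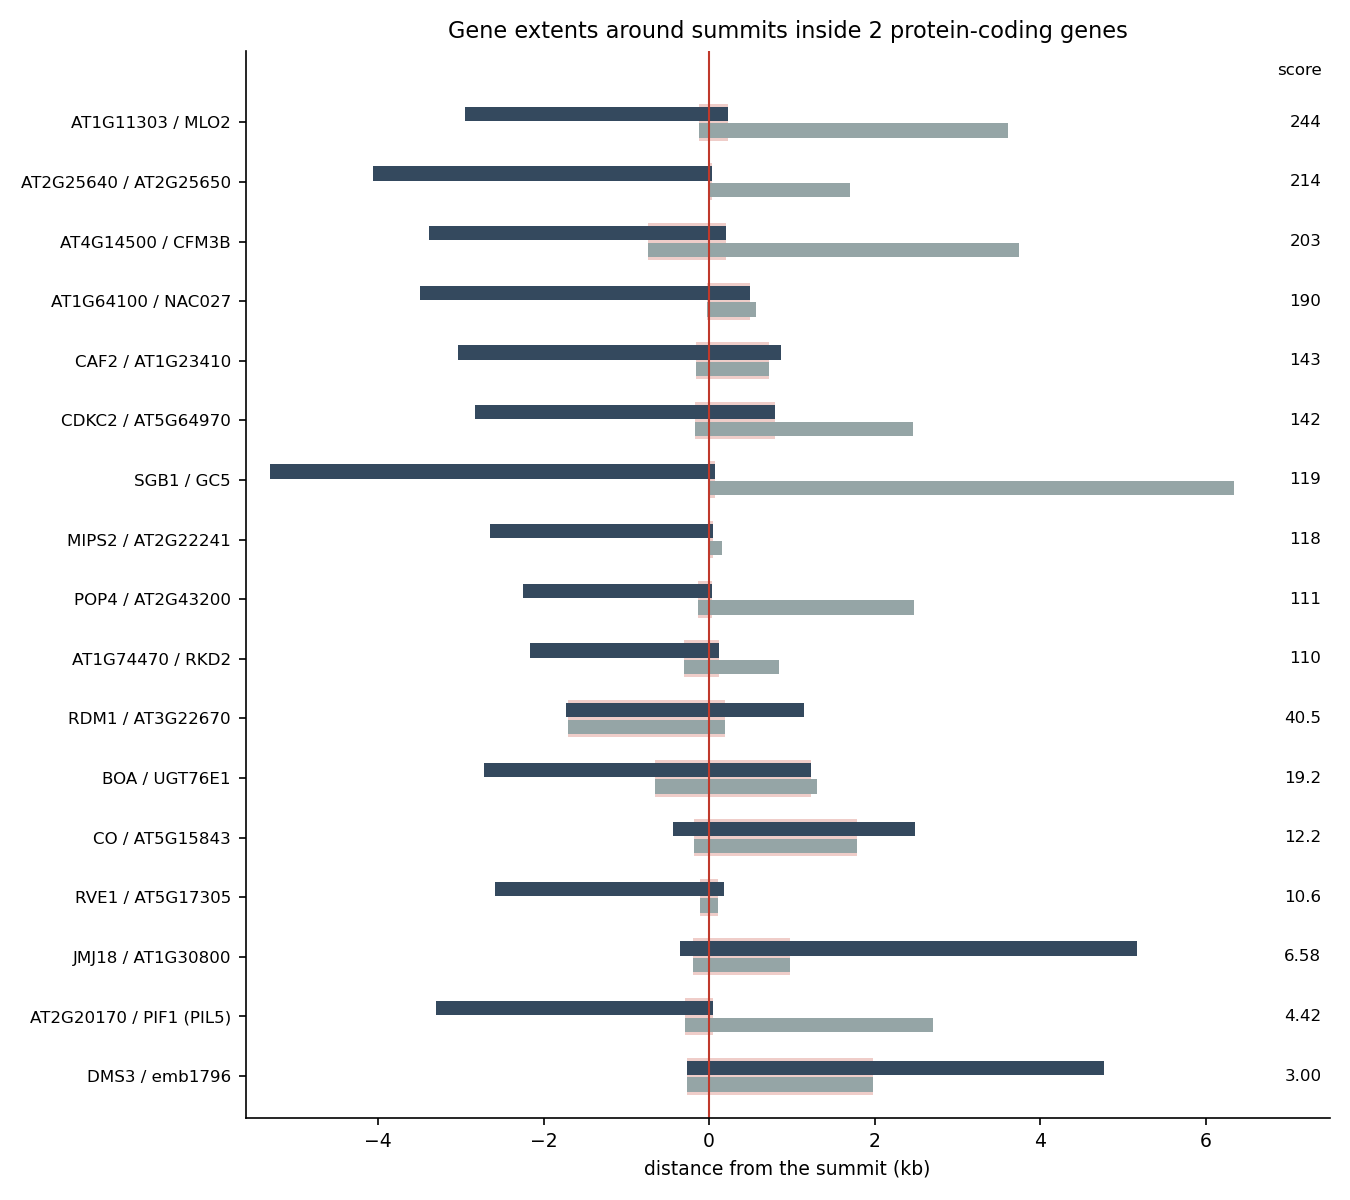
Extents of the 2 genes (dark and light bars, lower and higher start) around 17 member summits at 0 kb, with the shared bases shaded and the score at the right. The upper 10 rows are the highest scores, 110 to 244, and the lower 7 are genes of the flowering, clock, light and chromatin lists, with CO at 12.2.

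The nested members with the next highest scores included a gene of chromatin biology. ROS4 (also IDM1), a histone acetyltransferase gene of active DNA demethylation, contains AT3G14981, a gene of 219 bp, and their only summit lay in it (92.6, chromosome 3, position 5045271). ATRZ-1A, which encodes a zinc finger RNA-binding protein, and AT3G26430 have 1 end in common in the gene table and share 4411 bp. This region held 2 summits, of 91.9 at 30 bp from that common end (chromosome 3, position 9671547) and of 6.84 near the other end (position 9675799). AT5G51180 contains AT5G51190, with a summit of 53.2 (chromosome 5, position 20801205). A common start or end was found in 28 of all 3566 regions and in 13 of the 349 with a summit, which held 15 members.

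Of the 8 regions with 2 summits, the 4 with the highest scores were overlaps of 1772 to 4715 bp, and their summits lay at least 707 bp apart. LINC4 (also CRWN4), a nuclear lamina-like gene, lies inside ATBCAT-5, a branched-chain aminotransferase gene, with 4715 shared bp, the longest of the 3566 overlap regions. Its summits scored 40.5 at position 26315676 and 9.37 at position 26311539 of chromosome 5, each within 349 bp of an end of LINC4. LpxC2 and AT1G24822 share 1982 bp, with summits of 24.6 (chromosome 1, position 8777797) and 15.4 (position 8776087). ESB1, needed for normal suberin in the root, and AT2G28671 share 1772 bp, with summits of 18.8 (chromosome 2, position 12301420) and 3.19 (position 12300713). The 3 longest overlaps without a summit in the shared bases were AT3G22125 with AT3G22142 (4555 bp), AT2G34110 with AT2G34100 (3784 bp) and AT3G24929 with the receptor-like protein gene RLP40 (3607 bp). At the short end, ABF3, a bZIP factor of abscisic acid signalling, and DJ1C share 24 bp, and these held a summit of 45.9 (chromosome 4, position 16298280).

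Members were also looked up in lists of flowering, clock, light and chromatin genes. Of 151 listed genes found in the gene table, 38 overlapped another protein-coding gene, 30 of these had a summit inside them, and 7 had it in the shared bases. Over all 6831 overlapping genes, 60.8% had a summit inside them and 704 (10.3%) had it in the shared bases. The photoperiodic and floral list gave 1 of 7 overlapping genes, the clock list 2 of 6, light signalling 1 of 6, histone demethylases 1 of 9, histone deacetylases 0 of 4, and DNA and H3K9 methylation 2 of 6. These counts are too small for any order among the lists or for a difference from the 10.3% of all overlapping genes.

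CO (CONSTANS), which promotes flowering when days are long, was the flowering gene among them. Its single summit (score 12.2, chromosome 5, position 5170593) also lies inside AT5G15843, a protein-coding gene of 1967 bp that is wholly within the 2924 bp of CO. The summit was 431 bp from the nearer end of CO and 177 bp from the nearer end of AT5G15843. Neither gene had another summit, and the nearest other one was 6684 bp away. From its position the summit cannot be given to 1 of the 2 genes.

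Among clock genes, BOA, a relative of the evening complex factor LUX, shares 1896 bp with the glucosyltransferase gene UGT76E1. The shared summit scored 19.2 (chromosome 5, position 24006608), and another in the 2 genes 7.08. RVE1, a MYB-like factor that links the clock to auxin, contains AT5G17305 of 225 bp, where its only summit lay (10.6, chromosome 5, position 5692814). PIF1 (PIL5 in the gene table), a phytochrome-interacting repressor of germination, shares 334 bp with AT2G20170. The summit there was weak at 4.42 (chromosome 2, position 8704309), against 15.7 for the other summit of the 2 genes.

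JMJ18, a histone H3K4 demethylase gene, contains AT1G30800. Their single summit scored 6.58 (chromosome 1, position 10937121) and lay 356 bp from the nearer end of JMJ18. RDM1, a component of RNA-directed DNA methylation, contains AT3G22670 of 1899 bp and had a single summit of 40.5 (chromosome 3, position 8019364). It was 188 bp from an end of AT3G22670 but 1144 bp from the nearer end of RDM1. DMS3, a partner of RDM1 in that pathway, contains emb1796, and the shared summit scored 3.00 (chromosome 3, position 18256225), against 13.9 for another summit of the 2 genes. HDA6, a histone deacetylase gene, shares 28 bp with AT5G63100, and none of its 3 summits lay there.

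Members were spread over the chromosomes. They made up 2.07% of the summits of chromosome 1 (100 members), 1.76% on chromosome 2 (45), 1.82% on chromosome 3 (68), 2.23% on chromosome 4 (62) and 1.83% on chromosome 5 (82), with intervals that all overlap. In gene-poor windows of 500 kb, 5 of 49 overlap regions held a summit (10.2%, 3.40 to 22.2), against 9.79% of all regions. The 357 members lay in 704 genes, of which 246 (34.9%) had a symbol other than a locus number, against 37.8% of all protein-coding genes. A gene under 500 bp took part in 44 members (12.3%) and in 296 overlap regions (8.30%). The same genes held another summit, in the shared bases or outside them, for 213 members. The member had the highest score of its 2 genes in 107 of these cases (50.2%, 43.3 to 57.1). Some pairs held more than 1 other summit, so this share cannot be read against an even split.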

How the data were processed

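Per the submitters' processing notes, reads were processed with Bowtie2 and MACS2 on TAIR10. The sources used here do not give versions, the peak threshold, how the 2 ChIP libraries were combined or how the input was used. The deposited file holds 1 list of 1 bp summits with a score that has the layout of a MACS2 −log10 p-value or q-value. The authors' list has no depth and no value per library.

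Genes were the 27444 nuclear protein-coding entries (37899 genes of all types) of an NCBI RefSeq table of TAIR10.1, which has extents but neither strand nor exons. Only summit positions (TAIR10, counted from 1) are printed. To check that both share coordinates, summits were shifted by up to 2000 bp in steps of 200 bp. The share from 100 up to 300 bp inside a gene end was highest without a shift on 5 of 5 chromosomes (at least 33.6%, against at most 20.0% after a shift). Each chromosome was measured over the span that its annotated genes cover. Shares have exact (Clopper-Pearson) binomial intervals, densities exact Poisson intervals, ratios of densities exact conditional binomial intervals and medians order-statistic intervals, all of 95%. The ratios to the number expected at matched distance, for all shared bases and by overlap length or type, are an exception. They have exact Poisson intervals of the observed count, with the expected number taken as known. Summits are not replicates, so no test was run. The density expected at matched distance from gene ends used bins of 100 bp up to 500 bp, then 500 to 999 bp and beyond.

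A split by strand arrangement was intended but could not be made, and partial and nested overlaps were used in its place. No sequence was used here. Named members follow a rule: the 10 highest scores, the 4 highest of each overlap type, up to 4 regions with most summits, the 2 longest and 2 shortest with a summit, those nearest an edge, the 3 longest without a summit, and members in 6 gene lists of 152 entries (135 matched by symbol or synonym, 17 by locus number). The members and lists were chosen with earlier results of these data known. The flank, gene-end profile and gene-length comparisons were added after the data were seen. Routines were tested on simulated data. Tables were handled with pandas 2.3.3 in Python 3.11.15, intervals came from SciPy 1.17.1 with numpy 2.4.6, and plots from matplotlib 3.10.9.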

Additional observations from a re-analysis of the deposited data

Results flagged for a closer look

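The chloroplast genome carried 42 summits that entered no comparison of the nuclear genes. Only 1 of them lay inside 2 protein-coding entries of the gene table, and both entries were named rps12, so 0 lay inside 2 differently named chloroplast genes.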

How the results depend on the processing

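Of 81 values recomputed under alternatives, 57 stayed within the counting interval of the reported value and 24 did not. A change of sign was looked for only in the score difference, which stayed positive in its 7 alternatives. The density ratio of bases inside 2 genes to bases inside 1 ranged from 1.39 to 1.75, and the ratio at matched distance from gene ends from 0.864 to 1.0 over 13 alternatives chosen after the data were seen. With equal weight for both genes it was 1.0, the only one of the 13 outside its interval. With only summits at or above the median score, the density ratio was 1.75, the share of members 2.31%, the share of regions with a summit 5.89% (4.42% of partial, 15.5% of nested), the densities 22.5 and 19.6 per 100 kb, the median length without a summit 91 bp and the share of overlapping genes with a summit 38.3%. With overlaps of at least 50 bp, 14.2% of regions and 11.0% of partial ones held a summit, and those without had a median of 162.5 bp. With at least 200 bp, members were 1.72% of summits, 25.5% of regions and 22.4% of partial ones held a summit, and median lengths were 648 bp with and 440 bp without. Without nested genes the share of members was 1.26% and that of regions 7.26%, with genes of all types 4.10% and 11.8%, and within 50 bp of shared bases 2.5% and 12.6%. Leaving out each chromosome gave density ratios of 1.41 to 1.56. No summits were closer than 300 bp, so that alternative changed nothing. The alternatives for strand arrangement were not run, since the gene table has no strand. No paired analysis was possible because the single list has no value per library. Depth is unknown, and classes with few summits have wide intervals.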
